A study of Mus musculus with 39 samples.

Results

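An inherited and an acquired injury of the mouse heart were compared at an early stage: the change in expression of 5-week-old hearts homozygous for the phospholamban R14del variant against their wild type, and the change in ventricle of wild-type hearts 3 days after ischemia-reperfusion against sham surgery. The quantity examined is the difference of these 2 changes (the homozygous effect minus the ischemia-reperfusion effect), gene by gene. It used 16 of the 39 libraries of the series: 4 from Pln R14del/R14del hearts and 4 from wild-type hearts at 5 weeks without surgery, 4 after ischemia-reperfusion, and 4 after sham surgery. All mice were of the C57BL6/J strain, and all tissue was left ventricle. The surgical mice were wild-type males operated on at 12 weeks of age, and the left anterior descending coronary artery was tied for a time and then released. Their tissue came from myocardium remote from the infarct, so the injured zone itself was not sampled. Of the shams, 2 were taken 3 days after surgery, at the age of the ischemia-reperfusion mice (12 weeks), and 2 were taken 8 weeks after surgery, at 20 weeks. They were pooled as 1 control group. The 2 effects share no library, but age, surgery and experiment all differ between them, and these cannot be told apart in a comparison of levels across the 2 experiments. No label ties a replicate to its own animal, and the p-values therefore cover only how these libraries vary.

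Phospholamban is a small membrane protein of the sarcoplasmic reticulum that holds back the calcium pump SERCA2a until it is phosphorylated, and the R14del variant, which removes an arginine, causes dilated and arrhythmogenic cardiomyopathy. Restoring blood flow to an ischemic heart brings oxidant stress, calcium overload and an inflammatory phase of neutrophils, then monocytes and macrophages, followed by fibroblast proliferation and scar formation. Failing cardiomyocytes of either origin commonly re-express fetal genes such as natriuretic peptides and lower their oxidative metabolism.

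Levels are given as CPM (counts scaled to a common library size, here after TMM, a correction for library composition). Effects are log2 differences with a standard error (SE). This SE was derived from the test, as the absolute effect over the square root of its F statistic. It is not the SE of the fitted coefficient. The SEs of 2 effects therefore need not combine into that of their difference (0.53 and 0.47 against 1.36 for Sprr1a). A gene was called when its Benjamini-Hochberg adjusted p in edgeR's quasi-likelihood test was under 0.05, adjusted over all 13796 genes tested. Total counts were 9.78 M to 11.98 M reads in the 5-week libraries and 9.4 M to 15.7 M reads in the surgical ones. Mitochondrial transcripts made up 14.6% to 15.9% of counts in homozygous and 19.9% to 21.1% in wild-type libraries, 18.5% to 21.4% after ischemia-reperfusion and 23.1% to 26% in shams. Libraries within a group spread more in the surgical set. The median SD across genes on the log2 scale was 0.154 (homozygous), 0.144 (wild type), 0.178 (ischemia-reperfusion) and 0.201 (sham). The sham value also spans the 2 ages and times after surgery pooled in that group. The defining cardiomyocyte markers Myh6 and Atp2a2 stood at 9175 CPM or more and 5821 CPM or more in every library. Sham replicate 2 of the 12-week age stood apart: the slow myosin Myh7 was at 9161 CPM there and at 303, 1031 and 482 CPM in the other 3 shams. Counts of called list members that changed by more than 1.5 times without it are given both ways. Where 4 sham values are listed, they are 12-week replicate 1, 20-week replicates 1 and 2, and 12-week replicate 2, in that order; the other groups are listed as replicates 1 to 4.

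Most genes that responded to both conditions moved the same way. In homozygous hearts an effect was called for 5256 genes (38.1% of those tested), 2751 higher (19.9%) and 2505 lower (18.2%). The ischemia-reperfusion effect was called for 4707 genes (34.1%), 2611 higher (18.9%) and 2096 lower (15.2%). In all, 2969 genes were called in both, which is 56.5% of the homozygous calls and 63.1% of the ischemia-reperfusion calls. The direction was the same for 2887 of them (97.2%): 1651 rose and 1236 fell in both. Across all genes tested the 2 effects had Pearson r = 0.69 and Spearman rho = 0.63, a description only, since genes are not independent replicates.

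The difference between the effects was called for 1083 genes (7.85% of those tested). Of these, 424 had the higher homozygous effect (3.07%) and 659 the lower (4.78%). The largest class, 479 genes, had the homozygous effect called and not the ischemia-reperfusion effect, 235 of them rising and 244 falling. Another 298 had the ischemia-reperfusion effect called alone, 221 rising and 77 falling, and 10 had neither effect called. In 214 genes both effects were called in 1 direction and differed in size: among those that rose, 75 rose more in homozygous hearts and 77 more after ischemia-reperfusion. Among those that fell, 62 fell more in homozygous hearts and 0 fell more after ischemia-reperfusion by edgeR, against 13 at an unadjusted p under 0.05, 4 by DESeq2 and 3 by limma-voom. The remaining 82 moved in opposite directions, and all were called for the difference. The plot of both effects shows these genes on either side of the line of equal effects.

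**Figure D1:**
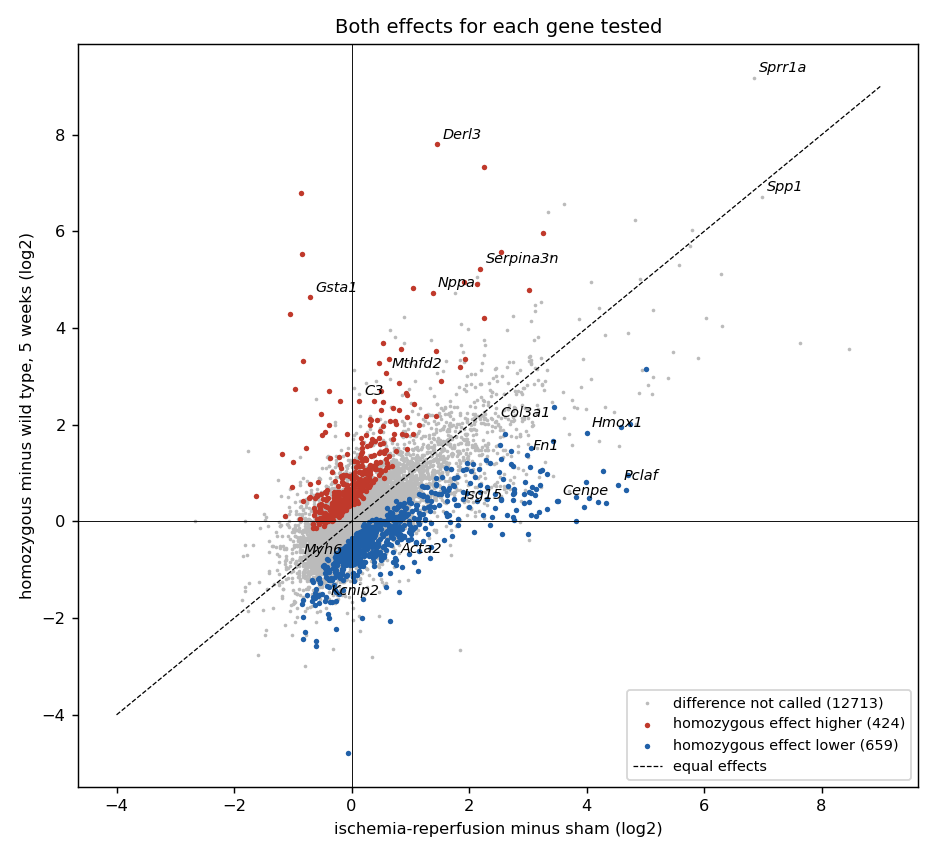
Each point is 1 of 13796 genes, with the ischemia-reperfusion effect on the x axis and the homozygous effect on the y axis (both log2). Red points (424) have the higher homozygous effect, blue points (659) the lower, grey points were not called for the difference, and the dashed line marks equal effects; Sprr1a and Spp1 lie at the upper right, Hmox1, Cenpe and Pclaf far to the right of the line.

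Scaling changed the split of each effect more than that of the difference. With library size alone as the scale, the median of both effects moved up by 0.21, the homozygous calls split into 4983 higher and 1201 lower, and the ischemia-reperfusion calls into 4752 and 565. The difference split 368 to 617 under that scaling, since the shift is common to both effects. With the 2 age-matched shams alone the difference was called for 646 genes, 575 of them among the 1083, and a test against a fold of 1.2 called 419. Among list members named here with a called difference, that control group ended the call for Nmrk2, Atf4, Gdf15, Hspa1b, Cfp, Csf3r, S100a9 and Bst2. The same held for Xaf1, Col5a1, Col8a2, Myh11, Kcnj5, Pln, Ace, Acot1, Fgf21, Tgfb2, Des and Cryab. Leaving out sham replicate 2 of the 12-week age ended the call for Atf4 (adjusted p = 0.0791), Bst2 (0.0726), Ccl8 (0.0644) and Mmp9 (0.0679). Over the 16 leave-one-out fits, these genes lost the call in 12, 13, 4 and 10.

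A difference of effects can lie between the treated groups or between the controls. Set side by side as mean levels (log2 of CPM plus 0.5), the 2 control groups stood further apart than homozygous and ischemia-reperfusion hearts for 582 of the 1083 called genes (53.7%), near the 51.7% of all genes tested. The share was 40.6% where the homozygous effect was higher and 62.2% where it was lower. It varied widely between gene groups, from 0 of 17 called genes of the unfolded protein response to 9 of 9 called interferon-response genes.

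Stress genes of the cardiomyocyte rose in both conditions, and some rose further in homozygous hearts. Of 18 genes tested on that list, 11 rose in homozygous hearts (median log2 effect of the list 1.01, against 0 for all genes) and 7 after ischemia-reperfusion (0.41, against -0.01). For 5 of 18 the homozygous effect was called higher, against 3.07% of all genes. Nppa (ENSMUSG00000041616, chromosome 4, 148000722 to 148002079, GRCm38), which encodes atrial natriuretic peptide, was at 300, 177, 194 and 183 CPM in wild-type and 6868, 6523, 4713 and 4478 CPM in homozygous hearts. In shams it was at 371, 171, 229 and 219 CPM and after ischemia-reperfusion at 524, 945, 605 and 506 CPM. Each condition lay wholly above its own control, and every homozygous library lay above every ischemia-reperfusion library. Libraries of condition and control did not overlap for 39.2% of all genes in the homozygous comparison and 27.2% in the other. The log2 effects were 4.73 ± 0.27 (SE) and 1.38 ± 0.23, and their difference was 3.34 (95% interval 2.65 to 4.04, adjusted p = 2.44e-05).

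Ankrd1, a stretch-responsive nuclear and sarcomeric protein, was the 1 of the 5 called stress genes whose controls stood further apart than the treated groups. It rose from 646 to 833 CPM in wild-type to 4264 to 5328 CPM in homozygous hearts, a log2 effect of 2.69 ± 0.17. After ischemia-reperfusion it stood at 2394 to 3210 CPM, against 1564, 2113, 1629 and 2913 CPM in shams, an effect of 0.51 ± 0.16 with overlap between the surgical groups. The difference was 2.18 ± 0.22 (adjusted p = 2.44e-05). Xirp2 and Flnc, actin-binding proteins of the intercalated disc and Z-disc, rose in homozygous hearts alone (1.31 and 0.88), with effects of 0.23 and 0.01 after ischemia-reperfusion that did not pass. Nmrk2, an enzyme of NAD synthesis, rose in both (4.91 and 2.13, difference adjusted p = 0.0137).

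Other stress and fetal genes rose without a called difference. Sprr1a, a small proline-rich protein induced by injury, rose from 0 to 0.195 CPM to 51.3 to 108 CPM in homozygous hearts, and from 0.25 to 0.751 CPM to 30.8 to 94.7 CPM after ischemia-reperfusion. Its effects of 9.18 and 6.85 differed by 2.33, with an interval from -0.5 to 5.17 (adjusted p = 0.344). Nppb, which encodes brain natriuretic peptide, had effects of 2 and 0.89 (difference adjusted p = 0.0639). Myh7 rose in homozygous hearts, from 33 to 56.3 CPM to 446 to 832 CPM. After ischemia-reperfusion it ranged from 1988 to 9782 CPM, and the shams overlapped that range through replicate 2 of the 12-week age. Its difference of 2.8 ± 1.03 was not called (adjusted p = 0.109). Without that sham it was 0.62 (adjusted p = 0.577), without the other 12-week sham 3.16 (adjusted p = 0.0345), and with the 2 age-matched shams alone, which include it, 3.57 (adjusted p = 0.0373). Nppa is also an atrial marker. The atrial light chains Myl4 and Myl7 had homozygous effects of -0.05 and -0.21, neither called.

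**Figure D2:**
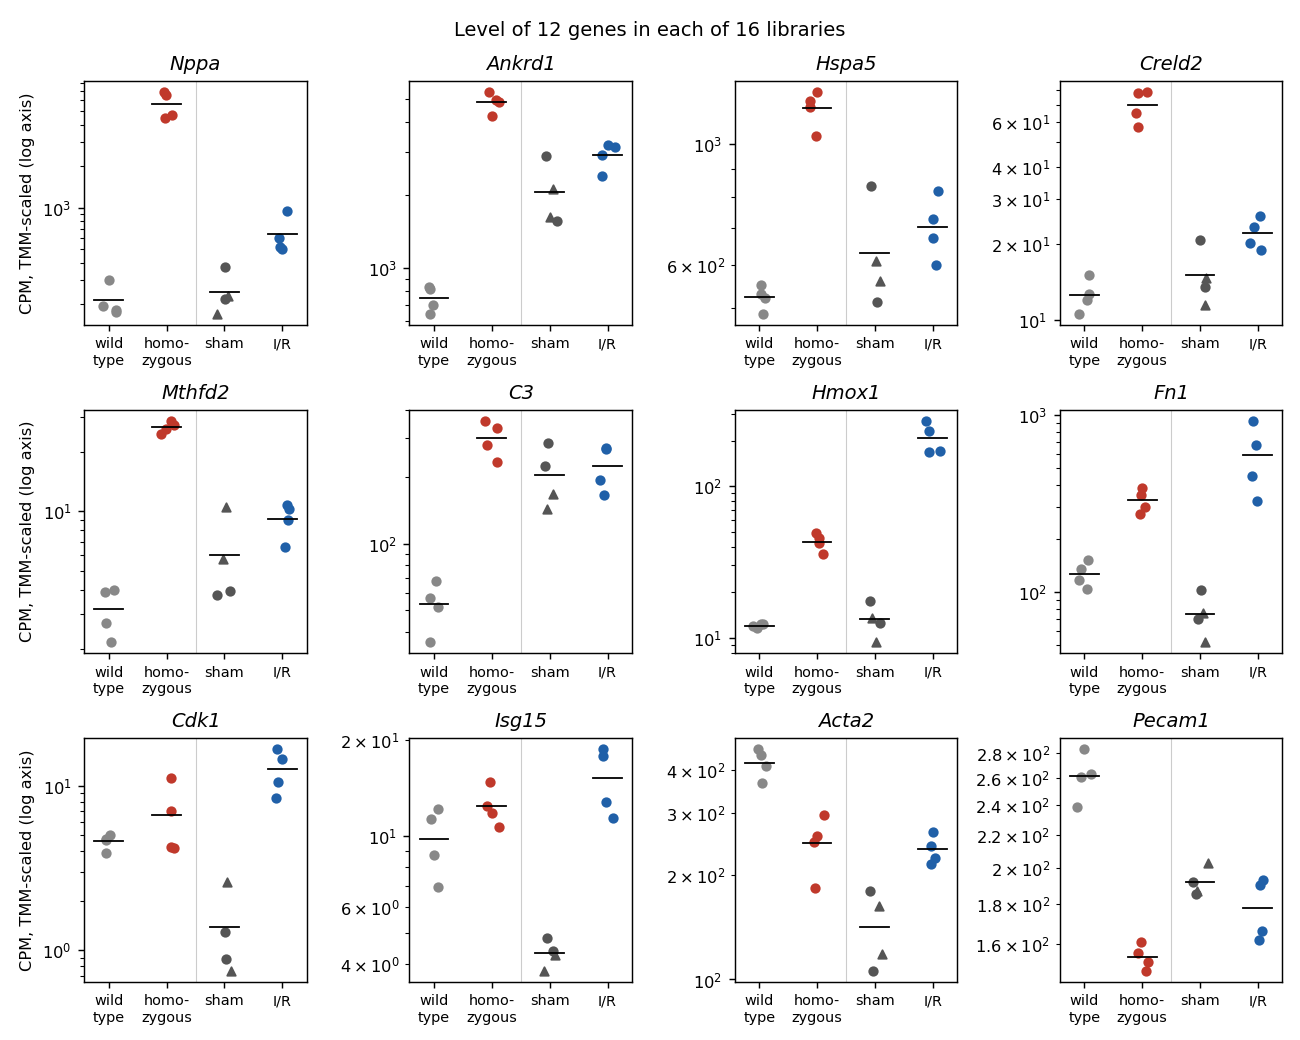
Level of 12 genes in each of 16 libraries as TMM-scaled CPM on a log axis, with wild type and homozygous hearts (5 weeks) left of the line and sham and ischemia-reperfusion (I/R) right of it; bars are means of 4, and triangles are the 20-week shams. Hspa5, Creld2 and Mthfd2 are highest in homozygous hearts, and Hmox1 and Fn1 are highest after ischemia-reperfusion. For Ankrd1, C3, Fn1, Cdk1, Isg15, Acta2 and Pecam1 the 2 control groups themselves do not overlap.

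Nearly every gene of the unfolded protein response rose in homozygous hearts, and most rose more than after ischemia-reperfusion. This response raises chaperones and degradation factors of the endoplasmic reticulum when unfolded protein accumulates there. Of 23 genes tested, 22 rose in homozygous hearts (median effect 1.08) and 14 after ischemia-reperfusion (median 0.42). For 17 of 23 the homozygous effect was called higher, against 3.07% of all genes. The same number was called under library size scaling, by DESeq2 and with the age-matched shams alone, and 16 without sham replicate 2 of the 12-week age. The 17 called differences ran from 0.52 to 6.34. In none of the 17 were the controls further apart than the treated groups, so the higher effect went with a higher level in homozygous hearts.

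Several of these genes hold the letters of the endoplasmic reticulum stress element in their promoters, the motif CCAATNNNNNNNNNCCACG. It was searched on both strands in windows of 300 bases (250 before to 50 after the start) of 27025 genes from RefSeq (GRCm38.p6), and 0.137% of genes held it. Of the 20 list genes with an entry, 9 held it, of which 7 were among the genes called for the difference. A match is a run of letters and does not show binding. The stretches around the motif are shown 5′ to 3′ on the strand of the gene for 4 called members, with the motif in capitals; in Creld2 and Derl3 it reads on the opposite strand.
Hspa5: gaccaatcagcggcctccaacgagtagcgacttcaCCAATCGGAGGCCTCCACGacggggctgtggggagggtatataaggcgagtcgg
Creld2: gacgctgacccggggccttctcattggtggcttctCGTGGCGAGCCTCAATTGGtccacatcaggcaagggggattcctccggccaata
Derl3: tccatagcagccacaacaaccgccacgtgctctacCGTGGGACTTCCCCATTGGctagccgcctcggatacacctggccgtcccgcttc
Dnajc3: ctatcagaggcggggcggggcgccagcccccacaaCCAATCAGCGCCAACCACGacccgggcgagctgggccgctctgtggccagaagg
They lie at chr2:34771990-34772078, chr15:88819485-88819573, chr10:75893207-75893295 and chr14:118937792-118937880 in GRCm38.p6, all on the plus strand and all upstream of the RefSeq start.

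Hspa5 (ENSMUSG00000026864), which encodes BiP, the main chaperone of the endoplasmic reticulum, was at 531, 488, 550 and 522 CPM in wild-type and 1199, 1245, 1036 and 1167 CPM in homozygous hearts. After ischemia-reperfusion it was at 819, 672, 728 and 600 CPM, against 512, 560, 609 and 837 CPM in shams. The surgical groups overlapped, with sham replicate 2 of the 12-week age the highest of its group. The effects were 1.15 ± 0.12 and 0.16 ± 0.12, and the difference was 0.99 ± 0.17 (adjusted p = 0.00204).

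Creld2 (ENSMUSG00000023272, chromosome 15, 88819646 to 88826683), a secreted disulfide isomerase, was at 10.6, 15.1, 12 and 12.7 CPM in wild-type and 78.1, 78.7, 57.2 and 65.3 CPM in homozygous hearts. Ischemia-reperfusion hearts had 23.3, 20.1, 25.7 and 18.9 CPM and shams 13.5, 11.5, 14.6 and 20.6 CPM. The homozygous libraries all lay above the ischemia-reperfusion libraries, and the surgical groups overlapped by 1 sham. Effects of 2.47 ± 0.15 and 0.54 ± 0.16 gave a difference of 1.92 (interval 1.46 to 2.38, adjusted p = 5.61e-05).

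Dnajb9, a cochaperone of BiP, had the smallest adjusted p of the list for the difference. It rose from 30.2 to 34.8 CPM to 78.2 to 86.9 CPM in homozygous hearts (1.34 ± 0.09). After ischemia-reperfusion it was at 39.2 to 48.9 CPM against 46.3 to 59.7 CPM in shams (-0.22 ± 0.09, adjusted p = 0.0758), and the difference was 1.56 ± 0.13 (adjusted p = 2.37e-06). Derl3, a factor of protein export from the endoplasmic reticulum for degradation, was nearly absent outside homozygous hearts. It had 36.1, 35.4, 14 and 26.2 CPM in homozygous libraries and at most 1.12 CPM in any other, with effects of 7.8 ± 0.47 and 1.46 ± 0.71 (difference adjusted p = 0.00464). Only 5 reads over the 4 wild-type libraries and 9 over the 4 shams stand behind its controls.

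The chaperones Hsp90b1 (1.08 and 0.42) and Calr (1.13 and 0.6) rose in both conditions and rose more in homozygous hearts. Pdia6, Pdia3, Xbp1 and Edem1 also rose in both, without a called difference. Edem1, which marks glycoproteins for degradation, was the 1 member with the larger estimate after ischemia-reperfusion (0.93 against 1.23, adjusted p = 0.347). Herpud1, a degradation factor, was called in neither (0 and -0.25).

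**Figure D3:**
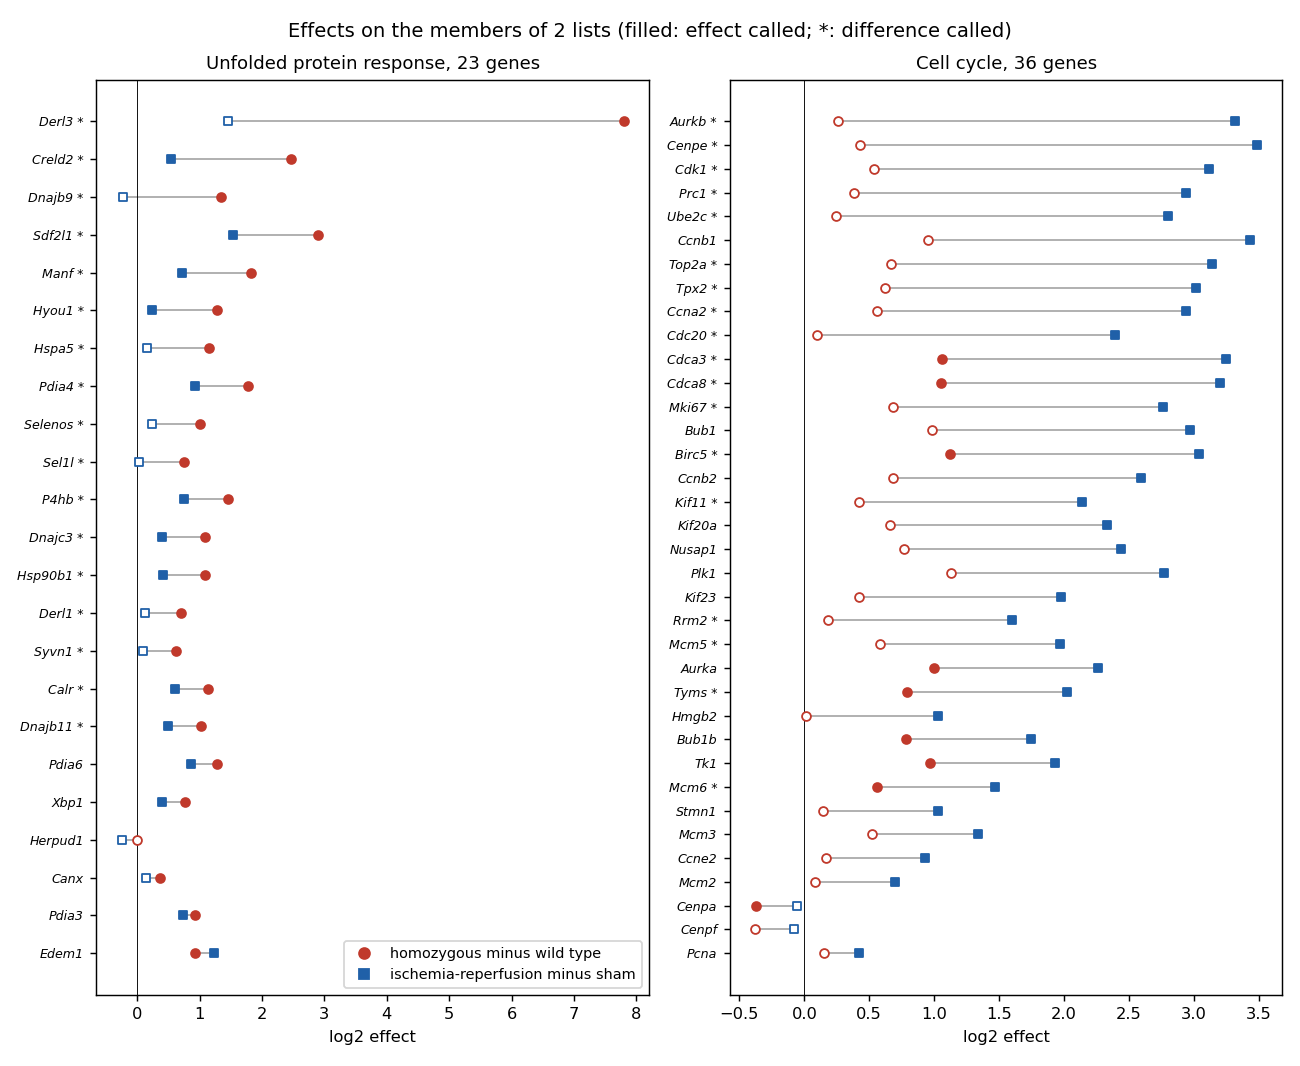
Homozygous effect (red circles) and ischemia-reperfusion effect (blue squares) on the log2 scale for 23 genes of the unfolded protein response (left) and 36 cell cycle genes (right), sorted by the difference. Filled symbols are called effects and asterisks called differences: 17 of 23 on the left have the higher homozygous effect, and 18 of 36 on the right the lower.

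The integrated stress response, in which ATF4 raises amino acid and folate-linked metabolism genes, moved in the same direction with a wider spread. Of 24 genes tested 20 rose and 1 fell in homozygous hearts (median 1.28), and 13 rose and 2 fell after ischemia-reperfusion (median 0.58). For 8 the homozygous effect was called higher, against 3.07% of all genes, and for 5 with the age-matched shams alone. Mthfd2, a mitochondrial enzyme of folate-linked metabolism, was at 3.99, 2.7, 3.88 and 2.17 CPM in wild-type and 28.8, 27.2, 24.7 and 26.1 CPM in homozygous hearts. It was at 6.57, 10.3, 10.7 and 9.05 CPM after ischemia-reperfusion and 3.94, 5.75, 10.5 and 3.76 CPM in shams, which overlapped. The difference was 2.48 ± 0.36 (adjusted p = 0.000477).

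Trib3, a pseudokinase induced by ATF4, rose in homozygous hearts alone (1.31, and -0.37 after ischemia-reperfusion, difference adjusted p = 0.000761). Atf4 itself rose in both (0.71 and 0.29, difference adjusted p = 0.0481), and Ddit3, which encodes CHOP, in homozygous hearts alone (0.94 and -0.02, adjusted p = 0.0211). The stress hormone Gdf15 rose from 0.486 to 1.47 CPM to 22 to 58.5 CPM in homozygous hearts and from 0.751 to 4.16 CPM to 5.38 to 17.5 CPM after ischemia-reperfusion. Its effects were 5.57 and 2.55 (difference adjusted p = 0.0161). Of the 3 serine synthesis enzymes, Psat1 (2.18 and 1.67) and Phgdh (1.79 and 1.32) rose in both with no called difference, and Psph was called in neither (-0.2 and 0.23).

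Heat shock proteins and cochaperones, of the cytosol and of mitochondria, were split. Of 21 tested, 8 rose and 2 fell in homozygous hearts, and 1 rose and 6 fell after ischemia-reperfusion; under library size scaling these counts were 15 and 0, and 5 and 1. The mitochondrial chaperones Hspa9 and Hspd1 fell in both conditions (-0.21 and -0.48, and -0.32 and -0.43). The homozygous effect was called higher for 5, against 3.07% of all genes. The count was 9 by DESeq2, 9 without sham replicate 2 of the 12-week age and 3 with the age-matched shams alone. Hspb8, a small heat shock protein of muscle, had effects of opposite sign (0.38 and -0.25, difference adjusted p = 0.00322). Hspa1a and Hspa1b, near-identical genes whose reads the counting may divide, had homozygous effects of 3.37 and 2.87 against 0.63 and 0.8. Of the 5 called genes, 3 had the controls further apart.

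Genes of oxidant defence did not move as 1 group. Of 20 tested, 10 rose and 2 fell in homozygous hearts, and 7 rose and 5 fell after ischemia-reperfusion. The homozygous effect was called higher for 7, against 3.07% of all genes, and lower for 1, against 4.78%. Hmox1 (ENSMUSG00000005413, chromosome 8, 75093621 to 75100589), the enzyme that degrades heme, was that 1. It was at 11.9, 12.3, 11.6 and 12.4 CPM in wild-type and 45.3, 48.9, 35.7 and 42.4 CPM in homozygous hearts. After ischemia-reperfusion it was at 170, 167, 230 and 271 CPM, against 12.5, 13.5, 9.36 and 17.5 CPM in shams. Both conditions cleared their controls, whose ranges overlapped, and every ischemia-reperfusion library lay above every homozygous one. Effects of 1.84 ± 0.17 and 4 ± 0.17 gave a difference of -2.16 (interval -2.66 to -1.66, adjusted p = 4.75e-05).

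Other targets of the same transcription factor NRF2 went the other way. Srxn1, which repairs oxidized peroxiredoxins, rose from 22.8 to 29.3 CPM to 62.7 to 81.8 CPM in homozygous hearts (1.51 ± 0.12) and had an effect of 0.18 ± 0.12 after ischemia-reperfusion (difference adjusted p = 0.00013). Nqo1 and Txnrd1, oxidoreductases, rose in homozygous hearts alone (0.96 and 1.05). Gsta1, a glutathione transferase with close paralogs, was at 5.94 to 8.37 CPM in homozygous and 0.09 to 0.647 CPM in wild-type hearts, with a difference of 5.35 ± 0.68 (adjusted p = 0.000127). For 5 of the 8 called genes of the list the controls were further apart than the treated groups.

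Of complement and antigen presentation genes, 6 of 18 and 6 of 17 were called with the higher effect in homozygous hearts, against 3.07% of all genes. With the age-matched shams alone these counts were 9 and 4. Of 18 complement genes 14 rose in homozygous hearts (median 1.55) and 7 after ischemia-reperfusion (0.36), and 6 had the higher and 1 the lower homozygous effect (Cfp, properdin, lost in 10 of 16 leave-one-out fits). C3 (ENSMUSG00000024164, chromosome 17), the central complement component, was at 67.8, 35.9, 52 and 56.9 CPM in wild-type and 333, 359, 234 and 278 CPM in homozygous hearts. It was at 266, 193, 165 and 269 CPM after ischemia-reperfusion and 285, 143, 167 and 225 CPM in shams. The homozygous effect was 2.5 ± 0.22 and the other 0.12 ± 0.21, a difference of 2.38 (adjusted p = 0.000115). Homozygous and ischemia-reperfusion levels overlapped, while every sham was above every wild type. The controls were further apart than the treated groups for 5 of the 7 called complement genes.

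Among 17 antigen presentation genes, 15 rose in homozygous hearts and 8 after ischemia-reperfusion, and 6 were called with the higher homozygous effect. The class II genes led: H2-Aa was at 29.9 to 37.3 CPM in wild-type, 86.4 to 133 CPM in homozygous, 61.1 to 77.6 CPM in sham and 70.8 to 129 CPM in ischemia-reperfusion hearts (1.66 and 0.4, difference adjusted p = 0.0027). Cd74, the class II invariant chain, had effects of 1.6 and 0.48. For 4 of the 6 called genes the controls were further apart. The early complement genes C1qa, C1qb and C1qc, made by macrophages, rose in both conditions without a called difference.

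Macrophage markers rose in both conditions and were not called for the difference. Of 17 tested, 15 rose in each condition (medians 2.03 and 1.75). The difference was called for 0 by edgeR, 0 by DESeq2 and 0 by limma-voom, with 4 at an unadjusted p under 0.05, and for 2 with the age-matched shams alone. The summed level of the list was 537 to 584 CPM in wild-type and 2121 to 2672 CPM in homozygous hearts, and 371 to 613 CPM in shams and 1447 to 2266 CPM after ischemia-reperfusion. In bulk tissue, more cells of a type and more RNA per cell cannot be told apart. Galectin-3 (Lgals3), a marker of recruited macrophages, had effects of 5.01 and 4.91, and Trem2, a lipid receptor of macrophages, 3.14 and 3.33.

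Neutrophil genes rose after ischemia-reperfusion. Of the 10 on the list 6 passed the count filter, and all 6 rose after ischemia-reperfusion (median 2.93) against 2 in homozygous hearts (median 0.07). A lower homozygous effect was called for 3, against 4.78% of all genes, and for 1 with the age-matched shams alone. S100a9, a subunit of the neutrophil protein calprotectin, was at 0.433 to 1.02 CPM in wild-type, 0.491 to 1.02 CPM in homozygous, 0.984 to 2.25 CPM in sham and 5.35 to 10.6 CPM in ischemia-reperfusion hearts. Its difference was -2.09 ± 0.55 (adjusted p = 0.0248), and the call was lost without wild-type replicate 3 (adjusted p = 0.0956), without homozygous replicate 2, and with the age-matched shams alone (0.0821). The defining marker Ly6g had 2 counts over all 16 libraries, and Camp and Ngp had 2 and 5. Csf3r, the receptor for granulocyte colony-stimulating factor, rose in both (1.45 and 2.72, difference adjusted p = 0.0119, and 0.0787 with age-matched shams).

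All 8 monocyte markers rose in both conditions, with medians of 2.22 and 2.91. The list includes Fn1, also a matrix gene, which had its 1 called difference (-1.62). Fn1 averaged 327.9 CPM of the list's mean sum of 478 CPM in homozygous hearts, and 595.6 of 770 CPM after ischemia-reperfusion. Arg1 (arginase 1) and Chil3 (a chitinase-like lectin), genes of recruited myeloid cells, reached 18.3 to 32.2 CPM and 5.88 to 27 CPM after ischemia-reperfusion and at most 0.707 and 1.55 CPM in homozygous hearts. Neither difference was called (adjusted p = 0.693 and 0.162); wild-type and sham libraries held at most 0.751 CPM of Arg1 and 0.27 CPM of Chil3. Serpina3n, an acute-phase protease inhibitor, rose from 4.07 to 7.59 CPM to 156 to 251 CPM in homozygous hearts. After ischemia-reperfusion it was at 109 to 174 CPM against 26.6, 11.6, 17.3 and 68 CPM in shams, and the difference was 3.03 ± 0.53 (adjusted p = 0.00204). Among 31 cytokine genes 25 rose in each condition. The homozygous effect was called higher for 3 and lower for 2, against 3.07% and 4.78% of all genes. Without sham replicate 2 of the 12-week age, the higher count was 1 (Ccl8, a chemokine, had adjusted p = 0.0644), and the median difference of the list went from 0.39 to 0.04.

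**Figure D4:**
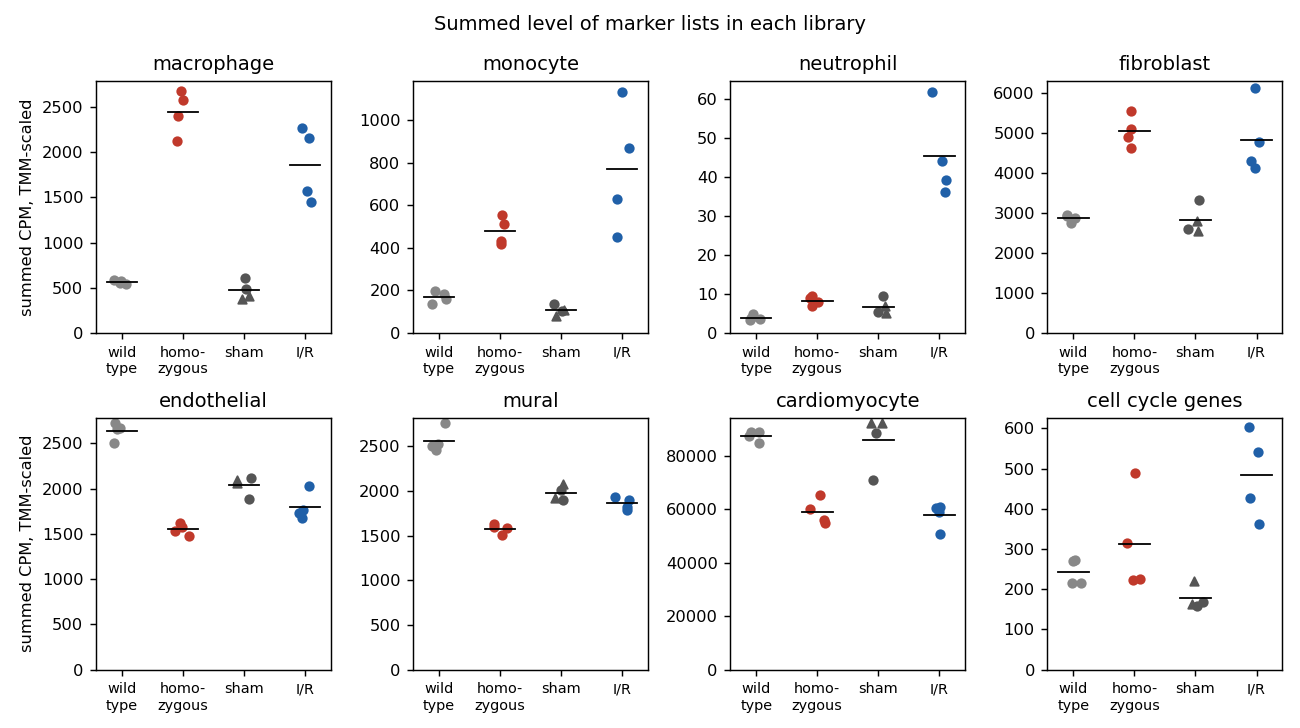
Summed TMM-scaled CPM of 7 cell type marker lists and the cell cycle list in each of 16 libraries; bars are means of 4 and triangles are the 20-week shams. Macrophage sums rise in both conditions. Neutrophil sums are 36.3 to 61.8 CPM after ischemia-reperfusion against 5.25 to 9.55 CPM in shams. In homozygous hearts they are 6.88 to 9.58 CPM against 3.47 to 4.81 CPM in wild type. Endothelial and mural sums are highest in 5-week wild type. Fn1, also a matrix gene, makes up most of the mean monocyte sum.

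Genes of cell division rose after ischemia-reperfusion and mostly did not pass the test in homozygous hearts. Of 36 tested, 34 rose after ischemia-reperfusion (median 2.36), and 8 rose and 1 fell in homozygous hearts (median 0.56). The homozygous effect was called lower for 18, against 4.78% of all genes, 22 by DESeq2, 14 without sham replicate 2 of the 12-week age and 12 with the age-matched shams alone. Cdk1 (ENSMUSG00000019942, chromosome 10, 69335146 to 69352938), the kinase that drives entry into mitosis, was at 4.67, 4.77, 3.88 and 5.03 CPM in wild-type and 4.18, 7.04, 4.24 and 11.1 CPM in homozygous hearts. It was at 8.41, 14.6, 10.5 and 16.7 CPM after ischemia-reperfusion and 0.885, 0.751, 2.6 and 1.29 CPM in shams. Homozygous and wild-type libraries overlapped, the surgical groups did not, and every 5-week wild type lay above every sham. Effects of 0.54 ± 0.31 and 3.12 ± 0.36 gave a difference of -2.58 (interval -3.59 to -1.57, adjusted p = 0.00298).

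The control groups also differed in level. For 15 of the 18 called cell cycle genes the controls were further apart than the treated groups, by a median of 1.13 (wild type minus sham, log2) against -0.77 (homozygous minus ischemia-reperfusion). The summed level of the list was 215 to 273 CPM in wild-type and 159 to 221 CPM in sham hearts, 222 to 488 CPM in homozygous and 361 to 604 CPM in ischemia-reperfusion hearts. Homozygous replicate 4 was the highest of its group for Cdk1, for Mki67 (48.1 CPM, against 14.7 to 26.2 CPM in the other 3) and for Top2a. Pclaf, a factor bound to the replication clamp and not on the list, had the largest negative difference among the genes named by rule (-3.79 ± 0.66, adjusted p = 0.0019), with 13 reads over the 4 shams. Age at sampling (5 against 12 and 20 weeks) moves with these control levels, and its part was not tested.

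Many of the promoters hold the cell cycle homology region TTTGAA, a short element of genes expressed in late cell cycle phases. It is common: 20.2% of all genes searched held it in a promoter window, on either strand. It was found in 18 of 30 list genes with an entry (60%) and in 9 of the 15 of these that were called. It is shown in capitals for 3 called members, on the strand of the gene.
Cdk1: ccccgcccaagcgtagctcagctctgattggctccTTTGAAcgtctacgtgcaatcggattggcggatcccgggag
Top2a: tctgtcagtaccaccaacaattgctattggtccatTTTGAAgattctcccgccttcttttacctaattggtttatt
Mki67: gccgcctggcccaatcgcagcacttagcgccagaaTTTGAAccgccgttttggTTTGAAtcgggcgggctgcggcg
They lie at chr10:69352943-69353018, chr11:99024328-99024403 and chr7:135716455-135716530 (GRCm38.p6), all on the minus strand.

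Interferon-response genes had a similar shape at a smaller size. Of 26 tested, 17 rose after ischemia-reperfusion (median 0.67), and 5 rose and 3 fell in homozygous hearts (0.09). A call of a lower homozygous effect was made for 9, against 4.78% of all genes. It was made for 6 without sham replicate 2 of the 12-week age and for 4 with the age-matched shams alone. Isg15 (ENSMUSG00000035692, chromosome 4, 156199424 to 156200818), a ubiquitin-like protein, was at 8.76, 12.2, 11.3 and 6.93 CPM in wild-type and 11.8, 12.4, 10.7 and 14.8 CPM in homozygous hearts. It was at 17.8, 12.8, 18.7 and 11.4 CPM after ischemia-reperfusion and 4.82, 4.25, 3.81 and 4.4 CPM in shams. The levels of homozygous and ischemia-reperfusion hearts overlapped, and the shams were the lowest of the 4 groups. Effects of 0.35 ± 0.18 and 1.81 ± 0.2 gave a difference of -1.46 ± 0.27 (adjusted p = 0.00268).

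Xaf1, counted among the 17, had an adjusted p of just under 0.05 for the ischemia-reperfusion effect. For all 9 called interferon genes the controls were further apart than the treated groups, with medians of 0.92 and 0.1. Of these 9, 8 rose after ischemia-reperfusion, and Rsad2, an antiviral enzyme, fell in homozygous hearts (-0.81, and -0.01 after ischemia-reperfusion). The core of the interferon-stimulated response element, GAAANNGAAA, was found in 10 of 20 list genes with an entry and in 4 of the 8 called. Of all genes searched, 3.99% held it (either strand, overlapping matches counted once per gene). The longer element GAAANNGAAACT was found in 6 of the 20 and in 1 of the 8 called, Bst2, against 0.303% of all genes searched. The core is shown in capitals for 3 called members. In Rsad2 it reads on the opposite strand.
Isg15: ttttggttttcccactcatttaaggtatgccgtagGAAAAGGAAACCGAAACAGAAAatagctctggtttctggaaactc
Bst2: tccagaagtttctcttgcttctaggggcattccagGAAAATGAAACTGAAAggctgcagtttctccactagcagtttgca
Rsad2: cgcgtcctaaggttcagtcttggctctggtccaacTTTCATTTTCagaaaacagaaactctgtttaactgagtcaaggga
They lie at chr4:156200852-156200931, chr8:71537558-71537637 and chr12:26456528-26456607 (GRCm38.p6), all on the minus strand.

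Most matrix genes rose in both conditions. Of 35 tested, 31 rose in homozygous hearts (median 1.24) and 26 after ischemia-reperfusion (1.29). The homozygous effect was called higher for 5 and lower for 7, against 3.07% and 4.78% of all genes. Among 22 collagens, 15 rose in each condition, and the homozygous effect was called higher for 1 and lower for 2, against the same shares. Fn1, fibronectin of the early provisional matrix, was at 135, 152, 104 and 117 CPM in wild-type and 275, 351, 303 and 384 CPM in homozygous hearts. It was at 327, 674, 454 and 928 CPM after ischemia-reperfusion and 102, 52, 75.8 and 69.9 CPM in shams. Effects of 1.37 ± 0.24 and 2.99 ± 0.25 gave a difference of -1.62 ± 0.34 (adjusted p = 0.00556), with both conditions clear of their controls. The crosslinking enzymes Loxl2 (0.75 and 2.18) and Loxl3 (1.28 and 2.29) and the fibrillar collagen Col5a1 (1.08 and 2.17) had the lower homozygous effect too. For Loxl2 the treated groups had like means (91.5 and 90.2 CPM) and the controls did not (54.4 in wild type and 19.7 CPM in sham), and likewise for Col5a1 (323 and 306 against 153 and 68.1 CPM). The controls were further apart for 4 of the 12 called matrix genes and 2 of the 3 called collagens. Col8a2, a short-chain collagen, was the 1 collagen with the higher homozygous effect (2.11 and 0.31, adjusted p = 0.0358), a call lost in 8 of 16 leave-one-out fits.

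Of the small proteoglycans tested, Lum and Dcn had the higher homozygous effect, and Bgn (1.54 and 1.2) and Fmod (0.37 and -0.32, neither called) had no called difference. Lum, lumican, rose from 72.8 to 92.6 CPM to 213 to 238 CPM in homozygous hearts (1.44) and had an effect of 0.48 after ischemia-reperfusion, where libraries and shams overlapped (difference adjusted p = 0.00204). Dcn, decorin, rose in homozygous hearts alone (0.68 and -0.05). Thbs4, a thrombospondin of stressed muscle, had effects of 3.56 and 0.85 (difference adjusted p = 0.00612). Spp1 (osteopontin, a cytokine of macrophages and matrix) rose from 0.433 to 0.876 CPM to 49.4 to 79.3 CPM in homozygous hearts and from 1.13 to 5.26 CPM to 220 to 510 CPM after ischemia-reperfusion. Its effects of 6.72 ± 0.41 and 6.98 ± 0.34 differed by -0.26, with an interval from -1.9 to 1.38. Postn (2.63 and 2.91) and Col3a1 (2.05 and 2.44) also rose in both without a called difference. Of 12 fibroblast markers, 9 rose in homozygous hearts, and 6 rose and 2 fell after ischemia-reperfusion. With the age-matched shams alone 3 rose and 0 fell after ischemia-reperfusion.

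Endothelial and mural cell markers fell in homozygous hearts. Of 12 endothelial markers, 11 fell in homozygous hearts (median -0.73) and 3 after ischemia-reperfusion (-0.08). Under library size scaling 0 fell and 1 rose after ischemia-reperfusion, with a median of 0.14. The homozygous effect was called lower for 9, against 4.78% of all genes, or for 6 with the age-matched shams alone. Pecam1, the adhesion molecule CD31, was at 239, 283, 263 and 261 CPM in wild-type and 148, 161, 156 and 152 CPM in homozygous hearts. It was at 193, 162, 166 and 190 CPM after ischemia-reperfusion and 192, 187, 203 and 185 CPM in shams. The homozygous effect was -0.76 ± 0.07 and the other -0.11 ± 0.07, a difference of -0.65 (interval -0.87 to -0.43, adjusted p = 0.00111). For 7 of the 9 called markers the controls were further apart than the treated groups. Their summed level was 2503 to 2721 CPM in wild type, above the 1891 to 2113 CPM of shams.

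Of 12 mural markers (smooth muscle and pericyte), 11 fell in homozygous hearts (8 under library size scaling). After ischemia-reperfusion 2 rose (Acta2 and Tagln) and 4 fell, with a median of 0.03. Under library size scaling 4 rose and 1 fell after ischemia-reperfusion. For 8 the homozygous effect was called lower, against 4.78% of all genes, and 4 of these had the controls further apart. Acta2 (ENSMUSG00000035783, chromosome 19, 34241090 to 34255590), smooth muscle actin, which activated fibroblasts also make, moved in opposite directions. It fell from 459, 410, 441 and 366 CPM in wild-type to 259, 249, 183 and 296 CPM in homozygous hearts. It rose from 180, 118, 163 and 106 CPM in shams to 223, 215, 241 and 266 CPM after ischemia-reperfusion. The ranges of the treated groups overlapped, and those of the controls did not. The effects were -0.76 ± 0.15 and 0.74 ± 0.15, a difference of -1.5 ± 0.21 (adjusted p = 0.000344). Tagln, transgelin, did likewise (-0.3 and 0.9, difference adjusted p = 0.00024), while Myh11, the smooth muscle myosin, had -0.76 and 0.05.

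The other genes with opposite effects, chosen by rule for the size of the smaller change, included Abat, a GABA transaminase, and Wfs1, a membrane protein of the endoplasmic reticulum. Abat rose from 6.1 to 8.54 CPM to 9.35 to 11.2 CPM in homozygous hearts and fell from 23.7 to 33.3 CPM to 15.9 to 19.6 CPM after ischemia-reperfusion (0.51 and -0.71, difference adjusted p = 0.000424). Wfs1 rose to 165 to 182 CPM from 114 to 141 CPM (0.47) and fell after ischemia-reperfusion (-0.48, difference adjusted p = 0.000822). Of the 82 opposite genes, 32 rose in homozygous hearts and 50 fell.

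Ion channel and calcium genes fell in both conditions, with a few falling further in homozygous hearts. Of 21 channel genes, 13 fell in each condition. For 5 the homozygous effect was called lower and for 1 (Kcnj5) higher, against 4.78% and 3.07% of all genes. Without sham replicate 2 of the 12-week age these counts were 4 and 2. Of 22 calcium handling genes 11 and 12 fell (7 and 5 under library size scaling). Kcnip2, the subunit that sets the transient outward potassium current, was at 216, 225, 251 and 234 CPM in wild-type and 72.7, 64, 83.3 and 78.1 CPM in homozygous hearts. It was at 203, 158, 171 and 158 CPM after ischemia-reperfusion and 239, 244, 210 and 248 CPM in shams. Neither pair overlapped, and the fall was -1.64 ± 0.1 against -0.45 ± 0.09 (difference -1.19 ± 0.13, adjusted p = 4.75e-05). The pacemaker channel Hcn2 and the potassium channel subunit Kcnv2 had a called fall in homozygous hearts alone (-1.11 and -2.57). For Kcnv2 the ischemia-reperfusion effect was -0.6 ± 0.24, just short of a call (adjusted p = 0.0552).

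Pln itself (ENSMUSG00000038583, chromosome 10, 53337667 to 53345987) was at 6199, 5930, 5989 and 5841 CPM in wild-type and 3350, 3292, 3828 and 3352 CPM in homozygous hearts. After ischemia-reperfusion it was at 6218, 5820, 5394 and 5257 CPM, against 7524, 7642, 7371 and 7477 CPM in shams. It fell in both (-0.79 ± 0.08 and -0.4 ± 0.08), without overlap. The difference of -0.39 ± 0.11 just passed (adjusted p = 0.0394), and the call was lost in 12 of 16 fits that left out 1 library (adjusted p up to 0.0891) and with the age-matched shams (0.102). The variant removes 1 codon and gene counts do not report it, so these levels do not check the genotype. Atp2a2, the SERCA2a pump, fell in both (-0.76 and -0.66, interval of the difference -0.49 to 0.3), as did the ryanodine receptor Ryr2 (-0.8 and -0.69).

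Oxidative metabolism fell in both conditions. All 30 genes of oxidative phosphorylation fell in homozygous hearts (median -0.56) and 29 after ischemia-reperfusion (-0.4). Under library size scaling 28 and 14 of the 30 fell. The difference was called for 0 of 30 by edgeR, DESeq2 and limma-voom, with 1 at an unadjusted p under 0.05. Of 30 genes of fatty acid uptake and oxidation 28 and 26 fell (medians -0.9 and -0.61). The homozygous effect was called lower for 3 of the 30 (Eci1, Ech1 and Acot1), against 4.78% of all genes. Of 16 leave-one-out fits, the call was lost in 0 for Eci1, 8 for Ech1 and 12 for Acot1. Eci1, an isomerase of unsaturated fatty acid breakdown, was at 231 to 258 CPM in wild-type, 107 to 133 CPM in homozygous, 228 to 297 CPM in sham and 151 to 224 CPM in ischemia-reperfusion hearts. Its effects of -1.04 and -0.4 gave an adjusted p of 0.0149 for the difference. Of 25 genes of the citrate cycle and branched-chain amino acid breakdown 24 and 23 fell. Cardiomyocyte markers fell beside these: their sum was 84607 to 88808 CPM in wild-type and 54732 to 65206 CPM in homozygous hearts, and 70958 to 92125 CPM in shams and 50771 to 60733 CPM after ischemia-reperfusion. The part of these marker levels in the fall of metabolic genes was not tested.

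Ribosomal protein genes rose by the same median in both conditions (0.37 and 0.37), 22 and 24 of 25 being called. Under library size scaling the medians of all genes themselves rose by 0.21. The plot of list medians sets these groups side by side.

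**Figure D5:**
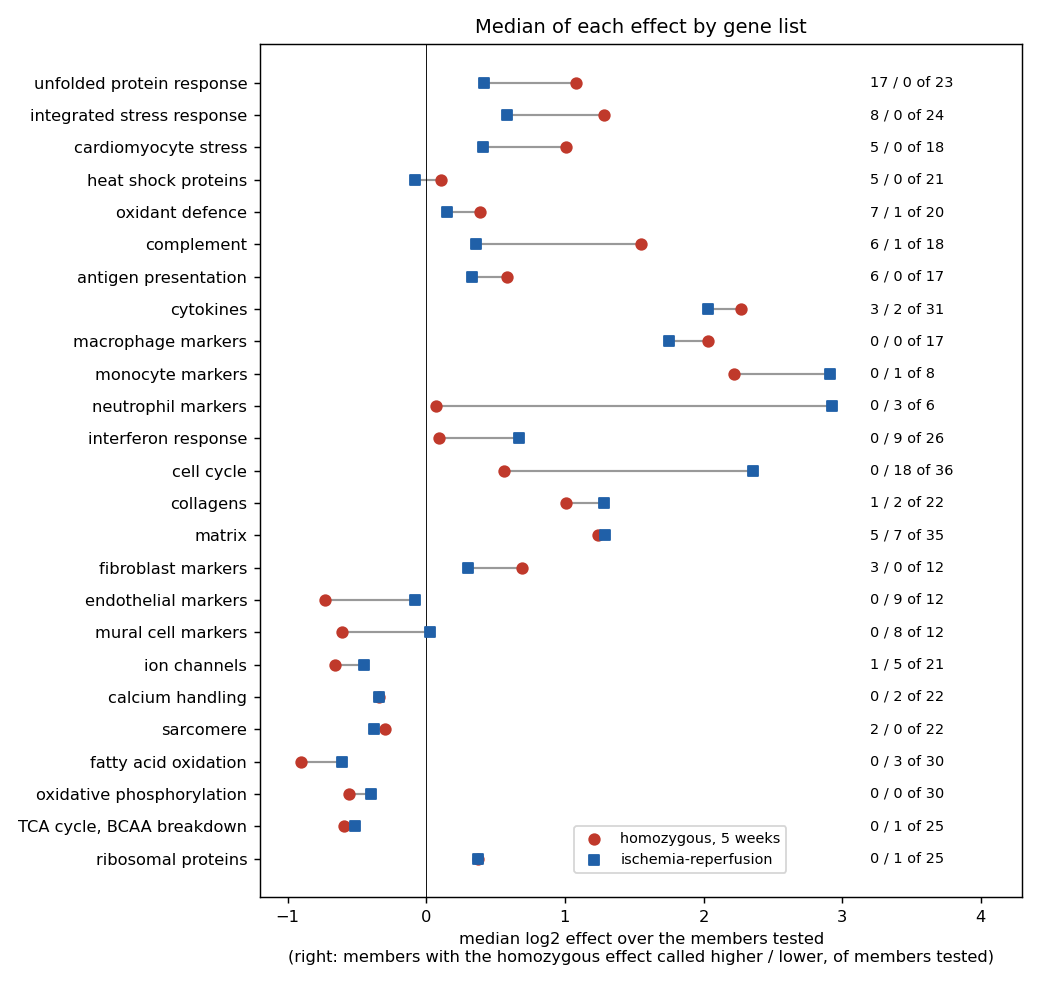
Median log2 effect over the tested members of 25 gene lists, homozygous (red circles) and ischemia-reperfusion (blue squares); at the right, the number of members with the homozygous effect called higher / lower. The widest gaps are those of neutrophil and cell cycle genes (median 0.07 against 2.93 and 0.56 against 2.36) and of complement genes (1.55 against 0.36), while calcium handling and ribosomal protein genes coincide.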

How the data were processed

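Raw read counts per gene, as deposited by the authors, were used for 39 libraries (16 here). Per the submitters' processing notes, STAR 2.7.3a, Subread 2.0.0 with featureCounts, and the build mm10 were used; the labels' protocols give a stranded mRNA kit, and the annotation and strand setting could not be read from the labels. Symbols came from GENCODE vM21. IDs without a symbol held 0.13% of counts.

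edgeR 4.0.16 (R 4.3.3) was fitted to 4 groups with TMM scaling, filterByExpr and the quasi-likelihood test, with 12 residual degrees of freedom. The contrasts were homozygous minus wild type, ischemia-reperfusion minus sham, and their difference. Intervals are 95%. All 16 libraries share 1 estimate of spread. DESeq2 1.42.0, limma 3.58.1 (voom), other scalings, filters and control groups, a replicate block and leave-one-out fits were alternatives. The code was tested on simulated data.

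The comparison and the gene lists were chosen with earlier results of these data known. Named genes follow a rule: 10 cardiac genes, the 6 largest differences each way (at least 5 CPM in a group), the 4 largest of each opposite or shared pattern, the 6 largest ischemia-reperfusion rises and falls, and the leading genes of each list with at least 3 calls; other list members illustrate their list and were picked after their values were seen.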

Additional observations from a re-analysis of the deposited data

Results flagged for a closer look

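Within groups of 4 libraries, a library is listed here when its gap to the nearest other is too large a share of the range of its group by Dixon's 95% limit. Of 352 groups examined (86 named genes, depth and mitochondrial share), 23 had such a library (6.5%), and chance gives about 1 in 20.

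Among shams, replicate 2 of the 12-week age was far above the others for Myh7 (9161 CPM) and far below for Myh6 (14198 CPM), the fast myosin. Replicate 1 of that age stood high for Mylk2 (1.57 CPM) and Oasl2 (20.6 CPM). The 20-week shams stood out for Pkia (replicate 1, 316 CPM) and Rny1 (replicate 2, 1.82 CPM).

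After ischemia-reperfusion, replicate 4 was low for Nppb (260 CPM) and Oas3 (4.85 CPM) and high for the neutrophil genes Csf3r (25.8 CPM) and S100a9 (10.6 CPM). Replicate 1 stood apart for Hspa1a (7.29 CPM), Rny1 (0.961 CPM) and Ece1 (123 CPM), and replicate 3 for Scn4b (28.6 CPM).

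In homozygous hearts, replicate 3 had the highest mitochondrial share (15.9%) and Pln level (3828 CPM), and replicate 1 stood apart for Adam8 (14.6 CPM). In wild-type hearts, replicate 1 was apart for Nppa (300 CPM), Muc15 (0.097 CPM) and Fbxo25 (18.3 CPM), replicate 2 for Aurkb (2.7 CPM), replicate 3 for Col18a1 (28.2 CPM) and replicate 4 for Sprr1a (0 CPM).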

How the results depend on the processing

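The difference was called for 1083 genes in the fit reported and for 970 to 1349 under other scalings, filters, tools and with all 39 libraries in the fit. It was called for 419 (151 higher, 268 lower) against a fold of 1.2 and for 646 (261 and 385) with the age-matched shams alone. The fold threshold left 2944 homozygous and 2343 ischemia-reperfusion calls, with 1404 shared in direction and 5 opposite. Age-matched shams left 2968 ischemia-reperfusion calls and 40 opposite genes; with 2 shams the group is small, and the cause was not tested.

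Same-numbered libraries did not deviate together (correlations 0.01 to 0.07 at 5 weeks and -0.15 to 0.15 in the surgical set), so the numbers do not pair them. With the replicate block the difference was called for 525 genes (176 higher, 349 lower), ischemia-reperfusion for 2964 and opposite genes for 41; replicates 3 and 4 of ischemia-reperfusion have no same-numbered sham and drop out of that fit.

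Leaving out each library gave 737 to 1155 difference calls (297 to 464 higher, 440 to 710 lower), 4526 to 5505 homozygous, 4110 to 4890 ischemia-reperfusion, 2602 to 3045 shared and 52 to 95 opposite calls; the 52 came without wild-type replicate 2. Of 86 named genes none changed sign among called results. Calls of 15 were lost in 2 or more leave-one-out fits, Pln, Mmp9, Cfp and Ace in 10 or more, and Mylk2 fell from 3.15 to 1.04 without sham replicate 1 of the 12-week age. Limits: age, surgery and set differ between the effects, counts near 0 leave folds such as that of Fgf21 (at most 1.96 CPM) uncertain, and bulk RNA does not separate cell number from expression.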

Other observations

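A few gene groups had no place above. Of 19 ligands, receptors and regulators of the transforming growth factor beta and BMP pathways, 12 rose and 3 fell in homozygous hearts, and 13 rose and 1 fell after ischemia-reperfusion. A higher homozygous effect was called for 2 of the 19, against 3.07% of all genes: Tgfb2 (1.81 and 1.05, adjusted p = 0.0281) and Gdf15. With the age-matched shams alone it was called for 0 of the 19 (adjusted p = 0.0865 and 0.0985 for these 2). The ligands Bmp4 and Bmp6 fell in homozygous hearts (-0.6 and -0.66). The glucose transporter Slc2a1 rose more in homozygous hearts (1.36 and 0.64, adjusted p = 0.0127). It was the 1 gene called among 21 of glycolysis, against 3.07% of all genes called higher. Without sham replicate 2 of the 12-week age, 2 were called. Des and Cryab, desmin and its small heat shock chaperone, were the 2 of 22 sarcomere genes called higher for the difference, against 3.07% of all genes. Their effects were 0.73 and 0.19, and 0.43 and -0.07. Of the 22 genes, 12 and 16 fell (9 and 5 under library size scaling). The age-matched shams alone left 0 of 22 called (adjusted p = 0.0711 and 0.175), and 4 were called without sham replicate 2 of the 12-week age.

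Shared rises with a control at 0 can only be given as bounds, with a floor of 3 counts over the group. Cd5l, a macrophage gene, had 0 counts in wild-type and 33 in homozygous hearts, at least 10.3-fold higher. Muc15, a mucin, had 0 counts in shams and 31 after ischemia-reperfusion, at least 7.53-fold higher.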
